A study of Homo sapiens with 24 samples.

Results

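The genes described here drive or brake the passage of a cell through G1, the phase before DNA is copied. They are the D-type cyclins CCND1, CCND2 and CCND3, their kinases CDK4 and CDK6, the E-type cyclins CCNE1 and CCNE2, the inhibitors CDKN1B and CDKN2C, and RB1. The 10 genes were listed by name, and every probe set that the platform annotation pairs with one of them and with no other gene was taken. That gave 23 probe sets for 9 of the 10 genes, out of 19775 genes with such a probe set. CDKN2C is not analysed here, since no probe set was paired with it. Of the 9 genes, 8 were bright enough to be tested, among 10661 genes, and CCND1 was not.

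In early G1 a D-type cyclin binds CDK4 or CDK6, and the complex phosphorylates RB1, the retinoblastoma protein, which otherwise holds the E2F transcription factors inactive. Freed E2F raises cyclin E, whose complex with CDK2 completes the step into S phase, and CDKN1B, the protein p27, binds and blocks that complex. Developing T cells rely on CCND3 and CDK6, and in T-cell acute lymphoblastic leukaemia (T-ALL) both genes, like MYC, are known to be under the control of the receptor NOTCH1.

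Human T-ALL lines were compared, TALL-1, RPMI-8402, P12-ICHIKAWA and SUPT11, each cultured for 16 h with NVS-ZP7-3, a small molecule, or with its solvent DMSO alone. DMSO was at 0.5% in both groups of every line, and the labels give no dose of the compound. Each of the 8 groups had 3 arrays, 24 in all, and nothing states that the 3 came from separate cultures. The p-values therefore weigh only the scatter among these arrays, part of which may be technical. NVS-ZP7-3 belongs to a series known as inhibitors of the zinc transporter SLC39A7 (ZIP7), which is background and not a label of these samples. The arrays measured RNA of whole cultures, in which fewer expressing cells and less RNA per cell cannot be told apart. Each line is a single established leukaemia line, and 9 or 10 of the 10 T-lineage markers with a probe set were at log2 4 or more in every group, with CD5 below that level in TALL-1 and CD2 in P12-ICHIKAWA.

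Levels are on the log2 scale of the deposited values, whose floor for undetected probe sets is 2.18 and whose highest value per array was 16.1 to 16.2. The level of a gene is that of its probe set with the highest mean over the 24 arrays, and levels are compared between samples, not between genes. Changes are NVS-ZP7-3 minus DMSO on that scale with the standard error (SE) of the limma model over all 24 arrays. A change is called at a Benjamini-Hochberg adjusted p below 0.05 over the 10661 genes.

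On 3 arrays stood transcripts foreign to their line. Counted were genes at or near the floor on all or nearly all of the line's other arrays and bright in the other 3 lines. On replicate 2 of TALL-1 with NVS-ZP7-3, 29 of 37 such genes lay clearly above the floor, and the median of the 37 was 1.63 above it. On replicate 2 of SUPT11 with NVS-ZP7-3 it was 16 of 22 genes (median 1.12), and on replicate 3 of RPMI-8402 with DMSO 4 of 7 (median 0.657), beside HBB, beta-globin, at 14.65. Other measures moved with treatment. The ACTB control, read at its 3' minus its 5' end as a sign of RNA integrity, was on average 2.50 with NVS-ZP7-3 and 2.01 with DMSO in TALL-1, and 2.44 and 2.13 in RPMI-8402. In P12-ICHIKAWA the 3 erythroid markers with a probe set, of 8 listed, summed to 12.3 to 15.8 with NVS-ZP7-3 and to 6.55 to 6.65 with DMSO. The means of HBD and ALAS2 were below log2 4 there, and HBB read 11.4, 8.17 and 7.96 with NVS-ZP7-3 and 2.18, 2.29 and 2.18 with DMSO. In RPMI-8402 these erythroid markers summed to 12.997 to 17.4 with NVS-ZP7-3 and to 6.69 to 29.5 with DMSO, where the highest sum is that of the foreign array. The 8 myeloid markers summed in P12-ICHIKAWA to 21.4 to 24.3 with NVS-ZP7-3 and to 18.6 to 19.6 with DMSO, with only the mean of LYZ in treated cells at log2 4 or more (8.01, 5.59 and 5.50, against 2.28, 2.95 and 2.99 with DMSO). The summed T-lineage markers were lower in RPMI-8402, at 102.2 to 103.8 with NVS-ZP7-3 and 108.6 to 109.1 with DMSO, and in TALL-1, at 107.1 to 107.9 and 109.8 to 111.7. The part of these measures in the results was not tested beyond the covariates and left-out arrays given.

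In TALL-1, RPMI-8402 and P12-ICHIKAWA the cyclin E1 gene CCNE1 fell and the inhibitor gene CDKN1B rose with NVS-ZP7-3. TALL-1 also had lower CCND3, CDK4 and CCNE2, and RPMI-8402 lower CDK4. In SUPT11 only CDK6 was called, higher on all 3 treated arrays, and 1 of those arrays carries transcripts of another line. RB1 and CCND2 were called in no line. All these calls are by the brightest probe set of each gene. By dimmer probe sets CDK6 was called lower in TALL-1, and by 1 probe set each in RPMI-8402 and P12-ICHIKAWA. CCNE2 was so called in RPMI-8402 and P12-ICHIKAWA too, and CCND2 in SUPT11.

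**Figure D1:**
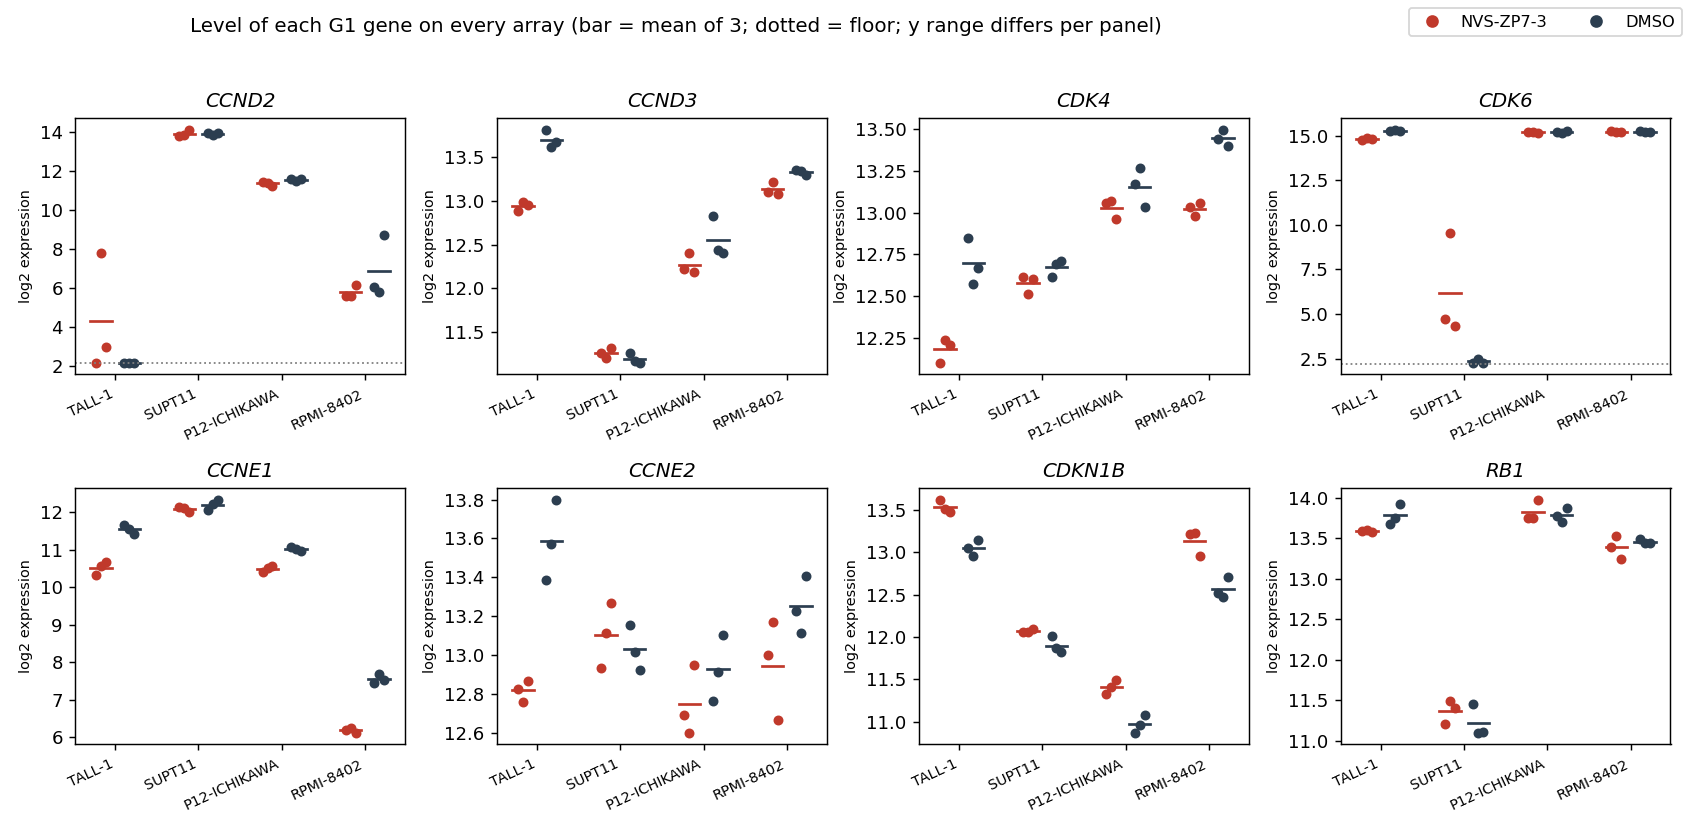
Level of the 8 tested G1 genes on every array (y axis, deposited log2 expression, with its own range per panel) by line (x axis), NVS-ZP7-3 in red on the left and DMSO in dark on the right of each pair, with a bar at the mean of 3 arrays and a dotted line at the floor of 2.18. CCNE1 in RPMI-8402 sits between 6.12 and 6.25 with NVS-ZP7-3 and between 7.45 and 7.69 with DMSO, while CDK6 in SUPT11 lies at 4.35 to 9.53 with NVS-ZP7-3 and near the floor with DMSO.

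In TALL-1, 5 of the 8 tested G1 genes were called, among 41.9% of all tested genes. Of these 4 were lower, CCND3, CDK4, CCNE1 and CCNE2 (19.6% of all genes were called lower), and 1 was higher, CDKN1B (22.3% of all genes were called higher). RPMI-8402 had 3 of 8 called, against 36.6% of all genes: CDK4 and CCNE1 lower (21.5% of all genes) and CDKN1B higher (15.1%). In P12-ICHIKAWA 2 of 8 were called, against 7.89% of all genes, CCNE1 lower (2.98%) and CDKN1B higher (4.91%). In SUPT11 it was 1 of 8, CDK6, against 1.76% of all genes, or 1.18% for genes called higher. None of the 8 was called lower in SUPT11, against 0.582% of all genes. With 8 genes, and with many genes of every kind called in TALL-1 and RPMI-8402, nothing particular to the G1 genes is read from these counts.

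Without regard to the model, all 3 treated arrays lay below all 3 DMSO arrays for 6 of the 8 genes in TALL-1, against 23.3% of all tested genes, and above them for 2 genes (25.5%). In RPMI-8402 it was 3 below (28.7%) and 1 above (20.5%), in P12-ICHIKAWA 2 below (9.5%) and 1 above (11.9%), and in SUPT11 1 below (7.77%) and 2 above (8.79%). The genes that lay apart without being called were CDK6, RB1 and CCND2 in TALL-1, CCND3 in RPMI-8402, CCND2 in P12-ICHIKAWA, and CDK4 and CDKN1B in SUPT11.

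**Figure D2:**
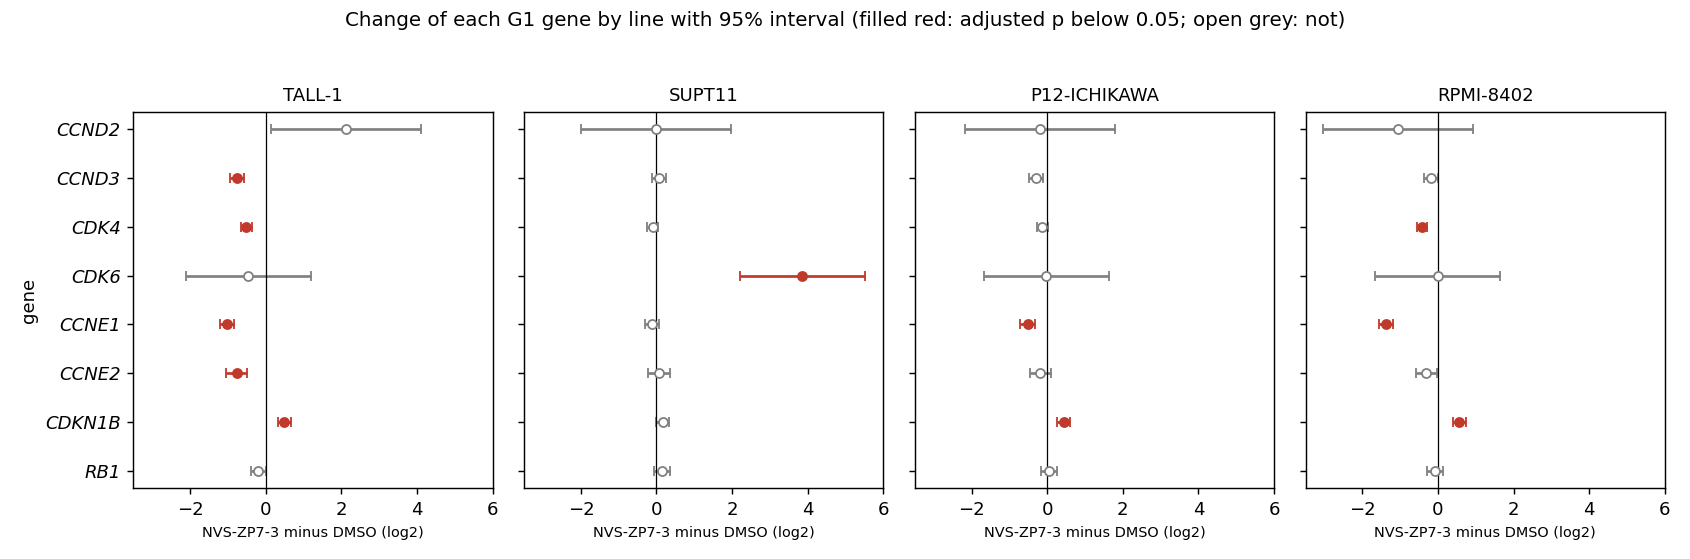
Change of each tested G1 gene (y axis) with NVS-ZP7-3 minus DMSO on the log2 scale (x axis) with its 95% interval from limma, 1 panel per line, filled red where the adjusted p is below 0.05. CCNE1 lies left of 0 and CDKN1B right of 0 in TALL-1, P12-ICHIKAWA and RPMI-8402, and the intervals of CCND2 and CDK6 are wide.

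Among the D-type cyclins, each line held its own mixture. CCND1, the cyclin D of many solid tissues, was at the floor of 2.18 on all 24 arrays by both of its probe sets. CCND3, the cyclin of the pre-T-cell receptor checkpoint, averaged with DMSO 13.70 ± 0.10 in TALL-1, 13.33 ± 0.033 in RPMI-8402, 12.55 ± 0.24 in P12-ICHIKAWA and 11.19 ± 0.062 in SUPT11 (SD, n = 3 each). Each neighbouring pair in that order differed, with log2 gaps of 0.37, 0.77 and 1.36 (limma adjusted p = 0.00105, 3.28e-07 and 4.69e-11). CCND2 ran the other way. With DMSO it averaged 13.93 ± 0.053 in SUPT11, then 11.56 ± 0.066 in P12-ICHIKAWA, then 6.86 ± 1.6 in RPMI-8402 (SD, n = 3 each), and was at the floor on all 3 arrays in TALL-1. SUPT11 and P12-ICHIKAWA lay 2.36 apart and P12-ICHIKAWA and RPMI-8402 4.70 apart (limma adjusted p = 0.0295 and 2.37e-04). RPMI-8402 lay above the TALL-1 floor by 4.68, which is a lower bound. The RPMI-8402 mean includes the DMSO array with foreign transcripts, at 8.75 beside 6.05 and 5.78, and without the 3 foreign arrays P12-ICHIKAWA minus RPMI-8402 was 5.65 and TALL-1 minus RPMI-8402 was -3.73. SUPT11, with the lowest CCND3, thus had the highest CCND2, and TALL-1, with the highest CCND3, had no CCND2 above the floor with DMSO.

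CCND3 fell with NVS-ZP7-3 in TALL-1. The treated arrays stood at 12.88, 12.99 and 12.95, and the DMSO arrays at 13.81, 13.62 and 13.67. All treated arrays lay below all DMSO arrays, and the change was -0.76 ± 0.089 (SE; limma adjusted p = 1.48e-06), which is 1.69-fold lower. In the other lines CCND3 was not called, with changes of -0.29 ± 0.089 in P12-ICHIKAWA (adjusted p = 0.0578), -0.19 ± 0.089 in RPMI-8402 (0.103) and 0.062 ± 0.089 in SUPT11 (1). The P12-ICHIKAWA adjusted p lies near the threshold and fell below it under 7 alternatives. Among them were quantile normalization (adjusted p = 0.0487) and the ACTB difference as a covariate (0.00359). With HBB as a covariate the P12-ICHIKAWA change was -0.22 (adjusted p = 0.368), and with the 6 arrays of that line alone the adjusted p was 0.411. The TALL-1 change was larger than that of each other line, by 0.82 on the log2 scale for SUPT11, 0.47 for P12-ICHIKAWA and 0.57 for RPMI-8402 (limma adjusted p of these differences = 8.44e-05, 0.011 and 0.00322). It was -1.10 with the ACTB difference as a covariate and -0.79 without the 3 arrays with foreign transcripts. The second CCND3 probe set, 1562028_at, was at the floor on every array, and the mean of both probe sets therefore gives a smaller change, -0.38 in TALL-1.

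CCND2 was not called in any line by 200953_s_at, its brightest probe set. The model takes 1 spread from all groups, so its SE was 0.94 in every line. The treated TALL-1 arrays had an SD of 3.04 and the RPMI-8402 DMSO arrays 1.64, and each group includes an array with foreign transcripts. In P12-ICHIKAWA all treated arrays lay below all DMSO arrays, a change of -0.18. That change was not called with the 6 arrays of the line alone either (limma adjusted p = 0.286). In TALL-1 the treated arrays stood at 2.18, 7.79 and 2.97, and all 3 DMSO arrays at 2.18. The high value belongs to the array with transcripts of another line, and the change of 2.13 ± 0.94 (limma adjusted p = 0.0799) became 0.40 without the 3 foreign arrays (0.119). On the same array 22 other genes that TALL-1 lacked with DMSO and that stood at log2 13 or more on every SUPT11 array had a median of 4.34, against 2.18 on treated replicates 1 and 3. The highest of them were FGFBP2, at 7.51, 7.74 and 7.64 on all 3 treated arrays, and COTL1, an actin-binding protein gene, at 7.27 on replicate 2 beside 2.19 and 2.28 on treated replicates 1 and 3. In SUPT11, the line with most CCND2, the treated arrays stood at 13.82, 13.83 and 14.12 and the DMSO arrays at 13.97, 13.87 and 13.94, so the groups overlapped. The probe sets of CCND2 disagreed there: 200951_s_at read 7.47, 7.47 and 7.86 with NVS-ZP7-3 and 8.08, 8.20 and 8.26 with DMSO, a change of -0.58 ± 0.072 (limma adjusted p = 7.40e-05). In the other lines this probe set was at the floor on every array, without spread, which lowers the shared SE and this p-value. The SUPT11 arrays themselves had an SD of 0.23 with NVS-ZP7-3 and 0.090 with DMSO. The other probe sets, 231259_s_at and 200952_s_at, gave changes of -0.14 ± 0.46 and 0.21 ± 0.21 in SUPT11, neither called (adjusted p = 1 in both). In RPMI-8402 the CCND2 level was 5.60, 5.62 and 6.15 with NVS-ZP7-3 and 6.05, 5.78 and 8.75 with DMSO, where the highest array is the DMSO replicate with foreign transcripts.

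CDK4, the cyclin D kinase present in most dividing cells, was highest in RPMI-8402 with DMSO at 13.44 ± 0.049, then 13.16 ± 0.12 in P12-ICHIKAWA, 12.70 ± 0.14 in TALL-1 and 12.67 ± 0.051 in SUPT11 (SD, n = 3 each). TALL-1 and SUPT11 did not differ beyond their spread (0.025 on the log2 scale, 95% interval -0.12 to 0.17, limma adjusted p = 0.769). CDK4 fell in TALL-1, where the treated arrays stood at 12.10, 12.24 and 12.21 and the DMSO arrays at 12.85, 12.57 and 12.67. It fell in RPMI-8402 too, with treated arrays at 13.03, 12.98 and 13.06 and DMSO arrays at 13.44, 13.50 and 13.40. In both lines no treated array reached a DMSO array, and the changes were -0.52 ± 0.067 in TALL-1 and -0.42 ± 0.067 in RPMI-8402 (SE; limma adjusted p = 5.39e-06 and 7.57e-05). These 2 changes did not differ from each other beyond error (difference -0.095, 95% interval -0.30 to 0.11, adjusted p = 0.521). The changes of -0.097 ± 0.067 in SUPT11 and -0.13 ± 0.067 in P12-ICHIKAWA were not called (adjusted p = 0.897 and 0.312). TALL-1 differed from both in its response (adjusted p = 0.00297 for SUPT11 and 0.00626 for P12-ICHIKAWA).

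The RefSeq promoter window of CDK4 runs from 250 bases before to 50 after the start of the gene. It is shown because CDK4 is one of the 3 genes called by their brightest probe set in more than 1 line. The window was also chosen because it holds repeated matches to an E-box, the site read by MYC and related factors. It lies on GRCh38.p14 at chr12:57752261-57752560 on the minus strand and is printed 5′ to 3′, with the matches to CACGTG in capitals.
CDK4: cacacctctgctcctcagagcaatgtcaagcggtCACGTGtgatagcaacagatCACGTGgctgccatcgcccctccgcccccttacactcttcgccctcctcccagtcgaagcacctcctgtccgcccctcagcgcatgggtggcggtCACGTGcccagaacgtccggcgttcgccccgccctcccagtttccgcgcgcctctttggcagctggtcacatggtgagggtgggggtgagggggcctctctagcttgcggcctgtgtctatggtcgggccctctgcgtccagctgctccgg
The letters CACGTG read the same on both strands and start at -216, -196 and -101 relative to the gene's start. CACGTG was also found in windows of CDK6 and CDKN2C. The CDK4 window was chosen for its repeats, so the shares that follow describe it and are no test. Of 35116 RefSeq windows of the same length 7.26% held 1 or more such matches and 0.094% held 3 or more. The windows were also searched on both strands for TTTNNCGC (E2F), GTAAACA (FOXO), TGGGAA (RBPJ) and TGATGNAA (the ATF4 and C/EBP composite), none of which is in the CDK4 window. Those letters occurred in 6.89, 3.42, 24 and 3.62% of all windows, and the motifs do not overlap in the CDK4 window. Windows were at hand for 7 of the 10 genes and not for CCND1, CCND2 and CCNE2. A match is a string of letters and shows neither binding nor its effect.

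CDK6, the cyclin D kinase typical of blood cells, was bright in 3 lines and at or near the floor in SUPT11. With DMSO its brightest probe set, 224851_at, stood at 15.27 ± 0.038 in TALL-1, 15.22 ± 0.028 in RPMI-8402 and 15.21 ± 0.047 in P12-ICHIKAWA, and at 2.34 ± 0.12 in SUPT11 (SD, n = 3 each). The first 3 lines lay less than 1 log2 unit under the brightest probe set of the arrays and did not differ from each other beyond error. SUPT11 lay at the floor or close to it, so the size of the gap is not measured (limma adjusted p against RPMI-8402 = 1.47e-11).

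In TALL-1 the CDK6 treated arrays stood at 14.77, 14.84 and 14.83 and the DMSO arrays at 15.26, 15.32 and 15.25. The groups did not overlap, yet the change of -0.46 was not called (SE 0.79; limma adjusted p = 0.724). The model takes 1 spread from all groups, and the treated SUPT11 arrays had an SD of 2.89 for this probe set. Without replicate 2 of SUPT11 with NVS-ZP7-3 the same change was called (adjusted p = 5.15e-05), as it was with the 6 TALL-1 arrays alone (0.0013). The dimmer probe sets of CDK6 gave larger changes in TALL-1. By 243000_at, the treated arrays stood at 9.49, 9.65 and 9.75 and the DMSO arrays at 10.57, 10.74 and 10.66, a change of -1.03 ± 0.085 (adjusted p = 1.85e-08). By 224848_at it was -0.86 ± 0.17, by 207143_at -1.40 ± 0.14 and by 235287_at -1.53 ± 0.13 (adjusted p = 5.07e-04, 2.72e-07 and 2.31e-08), and the second brightest, 224847_at, gave -0.42 ± 0.89 (0.796). The probe sets with a DMSO level near 15 thus read 0.42 to 0.46 lower with NVS-ZP7-3 and the 3 with a DMSO level of 9.19 to 10.66 read 1.03 to 1.53 lower. Which of these probe sets follows the transcript most closely was not tested. P12-ICHIKAWA and RPMI-8402 had 1 called CDK6 probe set each, 207143_at at -0.56 ± 0.14 (adjusted p = 0.0196) and 243000_at at -0.34 ± 0.085 (0.00373), while 224851_at gave -0.027 and -0.0078 (adjusted p = 1 in both).

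In SUPT11, where CDK6 was called higher, the treated arrays stood at 4.72, 9.53 and 4.35 and the DMSO arrays at 2.27, 2.49 and 2.27. Every treated array lay above every DMSO array, and replicate 2, the array with transcripts of another line, lay far above the others. The change was 3.86 ± 0.79 (SE; limma adjusted p = 0.0109), and 2.19 without the 3 foreign arrays (3.60e-10). In the latter fit only treated replicates 1 and 3 of SUPT11 remained. Its p-value rests mainly on the spread shared with the other lines, whose CDK6 arrays lay close together, and says little of the scatter at low SUPT11 levels. With the 6 SUPT11 arrays alone the CDK6 change was not called (adjusted p = 0.412). Since the DMSO arrays are near the floor, none of these values is a fold change of the transcript. By probe set 224847_at the treated arrays read 3.92, 9.69 and 4.17 and all 3 DMSO arrays 2.18, and by 224848_at 3.02, 4.01 and 3.03 with NVS-ZP7-3 and 2.66, 2.46 and 2.30 with DMSO. The 3 dimmer probe sets were not called (adjusted p = 1 in each): 243000_at and 235287_at stayed within 0.01 of the floor on all 6 SUPT11 arrays, and 207143_at read 2.42, 2.74 and 2.42 with NVS-ZP7-3 and 2.42 on each DMSO array.

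The level of CDK6 on treated replicates 1 and 3 of SUPT11 was set beside other genes that SUPT11 lacked. Over the genes absent from SUPT11 and bright in the other 3 lines, the median lay 0.0683 and 0.0218 above the floor on these replicates and 1.12 above it on replicate 2. Only 1 other gene that SUPT11 lacked with DMSO stood at log2 13 or more on every array of the other lines, SH2D1A, a signalling adaptor of T and NK cells. It averaged 13.61 in those lines, against 15.15 for CDK6, and read 2.47, 4.84 and 2.33 in SUPT11 with NVS-ZP7-3 and 2.26, 2.26 and 2.47 with DMSO. No gene as bright as CDK6 was thus at hand to show how much foreign RNA replicates 1 and 3 could hold, and its part in their CDK6 level was not tested beyond these values.

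**Figure D3:**
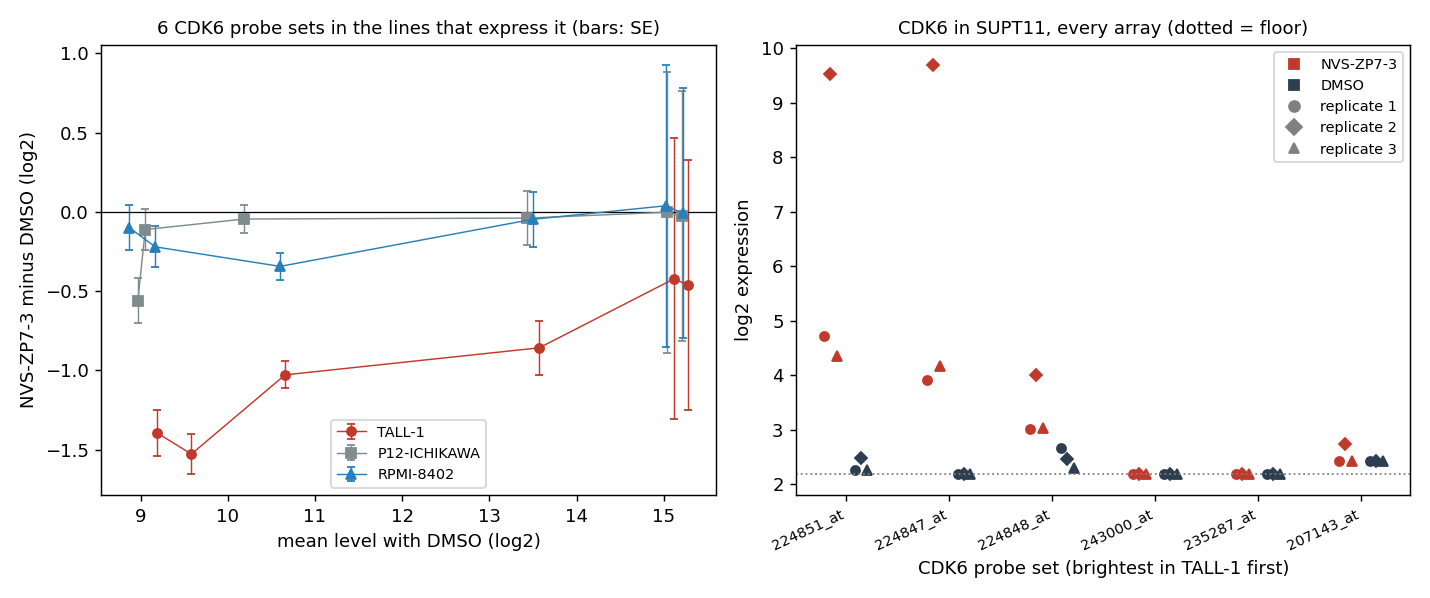
Left, change of 6 CDK6 probe sets (y axis, NVS-ZP7-3 minus DMSO, log2, bars are SE) against their mean DMSO level (x axis, log2) in TALL-1, P12-ICHIKAWA and RPMI-8402. Right, the same probe sets in SUPT11 on every array (y axis, log2), NVS-ZP7-3 in red left of DMSO in dark, with replicate 2 as diamonds. The TALL-1 changes run between -0.42 and -1.53, and in SUPT11 the treated replicate 2 reaches 9.53 and 9.69 by the 2 brightest probe sets.

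CCNE1, which encodes cyclin E1, had the largest called fall when each gene is read by its brightest probe set. Its DMSO level was 12.20 ± 0.14 in SUPT11, 11.55 ± 0.12 in TALL-1, 11.02 ± 0.055 in P12-ICHIKAWA and only 7.55 ± 0.12 in RPMI-8402 (SD, n = 3 each), and neighbours in that order differed by 0.65, 0.53 and 3.46 (limma adjusted p = 2.25e-06, 3.36e-05 and 3.64e-17). In RPMI-8402 the treated arrays stood at 6.20, 6.25 and 6.12 and the DMSO arrays at 7.45, 7.69 and 7.53. In TALL-1 they stood at 10.32, 10.56 and 10.68 with NVS-ZP7-3 and at 11.67, 11.55 and 11.43 with DMSO. In P12-ICHIKAWA it was 10.40, 10.51 and 10.57 with NVS-ZP7-3 and 11.07, 11.01 and 10.96 with DMSO. In all 3 lines the treated arrays lay below the DMSO arrays without overlap. CCNE1 fell on the log2 scale by 1.37 ± 0.091 in RPMI-8402, 1.03 ± 0.091 in TALL-1 and 0.52 ± 0.091 in P12-ICHIKAWA (SE; limma adjusted p = 1.02e-09, 4.11e-08 and 0.00111), or 2.58-fold, 2.04-fold and 1.43-fold. The 2 largest changes did not pass the test of their difference (0.34, 95% interval 0.07 to 0.61, adjusted p = 0.0636), and both were larger than that of P12-ICHIKAWA (adjusted p = 1.39e-04 for RPMI-8402 and 0.00752 for TALL-1). SUPT11, with the highest level, was not called, with treated arrays at 12.14, 12.11 and 12.02 and DMSO arrays at 12.06, 12.21 and 12.33 (-0.11 ± 0.091, adjusted p = 0.961). With HBB as a covariate the P12-ICHIKAWA change was -0.39 (adjusted p = 0.0337), and the part of blood cell transcripts was otherwise not tested. The second CCNE1 probe set, 242105_at, was at the floor on every array, and averaging both lowers each change by construction.

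The promoter window of CCNE1 lies on GRCh38.p14 at chr19:29811741-29812040 on the plus strand and is shown, like that of CDKN1B further on, because the gene was called in 3 lines. It holds none of the 5 motifs, so no letter is in capitals.
CCNE1: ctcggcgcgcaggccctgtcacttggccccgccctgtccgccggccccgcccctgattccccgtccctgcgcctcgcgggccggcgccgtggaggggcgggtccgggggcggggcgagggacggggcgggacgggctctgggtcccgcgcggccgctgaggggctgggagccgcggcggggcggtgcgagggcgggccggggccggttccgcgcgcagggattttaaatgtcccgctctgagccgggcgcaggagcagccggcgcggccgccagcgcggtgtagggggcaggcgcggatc

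CCNE2, which encodes cyclin E2, differed less among the lines. With DMSO it was 13.59 ± 0.21 in TALL-1, 13.25 ± 0.15 in RPMI-8402, 13.03 ± 0.12 in SUPT11 and 12.93 ± 0.17 in P12-ICHIKAWA (SD, n = 3 each). TALL-1 and RPMI-8402 differed (0.34, limma adjusted p = 0.0334), whereas RPMI-8402 and SUPT11, and SUPT11 and P12-ICHIKAWA, did not pass the test (adjusted p = 0.147 and 0.49). In TALL-1 the treated arrays stood at 12.83, 12.76 and 12.87 and the DMSO arrays at 13.39, 13.57 and 13.80, without overlap, a change of -0.77 ± 0.14 (SE; limma adjusted p = 1.46e-04). It was not called in RPMI-8402 (-0.30 ± 0.14, adjusted p = 0.0884), P12-ICHIKAWA (-0.18 ± 0.14, 0.534) or SUPT11 (0.073 ± 0.14, 1). The second probe set, 211814_s_at, gave larger changes. By it CCNE2 changed by -1.50 ± 0.13 in TALL-1, -0.76 ± 0.13 in RPMI-8402 and -0.60 ± 0.13 in P12-ICHIKAWA (adjusted p = 2.86e-08, 1.27e-04 and 0.00592), and by -0.25 ± 0.13 in SUPT11 (0.662). In RPMI-8402 it read 9.37, 9.31 and 9.37 with NVS-ZP7-3 and 10.06, 10.18 and 10.10 with DMSO, so that the groups lay apart where those of the brighter probe set overlapped.

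CDKN1B was the only one of the G1 genes to be called higher in more than 1 line. Its DMSO level ran from 13.05 ± 0.094 in TALL-1 over 12.57 ± 0.13 in RPMI-8402 and 11.90 ± 0.098 in SUPT11 to 10.97 ± 0.10 in P12-ICHIKAWA (SD, n = 3 each), and neighbours differed by 0.48, 0.67 and 0.93 (limma adjusted p = 3.72e-05, 4.60e-07 and 4.60e-09). In RPMI-8402 the treated arrays stood at 13.21, 13.23 and 12.96 and the DMSO arrays at 12.52, 12.47 and 12.71. In TALL-1 they stood at 13.62, 13.51 and 13.47 with NVS-ZP7-3 and at 13.05, 12.95 and 13.14 with DMSO. In P12-ICHIKAWA it was 11.33, 11.41 and 11.50 with NVS-ZP7-3 and 10.87, 10.96 and 11.07 with DMSO. In each of these lines all treated arrays lay above all DMSO arrays. CDKN1B rose by 0.57 ± 0.083 in RPMI-8402, 0.49 ± 0.083 in TALL-1 and 0.44 ± 0.083 in P12-ICHIKAWA (SE; limma adjusted p = 2.70e-05, 9.92e-05 and 0.00202), or 1.48-fold, 1.40-fold and 1.36-fold. These 3 changes did not differ from each other beyond error, and the widest difference, P12-ICHIKAWA minus RPMI-8402, was -0.13 on the log2 scale (95% interval -0.37 to 0.12). SUPT11 arrays did not overlap either, at 12.05, 12.06 and 12.09 with NVS-ZP7-3 and 12.01, 11.87 and 11.82 with DMSO, and the change of 0.17 ± 0.083 was not called (adjusted p = 0.601). With HBB as a covariate the P12-ICHIKAWA change was 0.40 (adjusted p = 0.0355), and with the 6 arrays of that line alone it missed the threshold (0.0671). CDKN1B has 1 probe set, so no second reading was at hand.

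Its promoter window lies on GRCh38.p14 at chr12:12717118-12717417 on the plus strand and holds none of the 5 motifs.
CDKN1B: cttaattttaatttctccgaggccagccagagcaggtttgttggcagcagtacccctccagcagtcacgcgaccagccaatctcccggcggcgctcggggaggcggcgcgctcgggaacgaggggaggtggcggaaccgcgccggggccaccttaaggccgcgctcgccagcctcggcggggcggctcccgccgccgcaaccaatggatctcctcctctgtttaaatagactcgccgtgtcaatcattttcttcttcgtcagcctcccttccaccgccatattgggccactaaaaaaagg

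RB1, the target of the cyclin D kinases, was called in no line. Its DMSO level was 13.79 ± 0.085 in P12-ICHIKAWA, 13.78 ± 0.13 in TALL-1, 13.46 ± 0.028 in RPMI-8402 and 11.22 ± 0.20 in SUPT11 (SD, n = 3 each). P12-ICHIKAWA and TALL-1 did not differ beyond error (interval of TALL-1 minus P12-ICHIKAWA -0.21 to 0.20), and SUPT11 lay 2.23 below RPMI-8402 (limma adjusted p = 8.91e-14). In TALL-1 the treated arrays stood at 13.59, 13.60 and 13.58 and the DMSO arrays at 13.67, 13.75 and 13.92. They did not overlap, and the change was -0.19 ± 0.099 (limma adjusted p = 0.132). The changes in the other lines were 0.15 ± 0.099 in SUPT11, -0.068 ± 0.099 in RPMI-8402 and 0.039 ± 0.099 in P12-ICHIKAWA (adjusted p = 0.858, 0.658 and 0.954). The 95% intervals of this probe set, 203132_at, ran from -0.40 at the lowest to 0.36 at the highest over the 4 lines. The dimmer probe set 211540_s_at lay outside that range in RPMI-8402, apart but not called (-0.66 ± 0.30, adjusted p = 0.095). There it read 7.21, 7.32 and 7.29 with NVS-ZP7-3 and 7.90, 7.98 and 7.91 with DMSO. The model takes 1 spread from all groups, and the SUPT11 DMSO arrays, near the floor, had an SD of 0.97 for this probe set. Its changes in TALL-1, where the groups also lay apart, P12-ICHIKAWA and SUPT11 were -0.38, -0.33 and -0.34. None of these was called (adjusted p = 0.348, 0.635 and 0.986).

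The response differed among the lines for 6 of the 8 genes, against 35.8% of all tested genes (limma F test of line by treatment). The adjusted p was 1.99e-06 for CCNE1, 4.11e-04 for CCND3, 0.00309 for CDK4, 0.0123 for CCNE2, 0.0137 for CDK6 and 0.0499 for CDKN1B, and 0.237 for CCND2 and 0.212 for RB1. The CDKN1B test was lost in 24 of 34 alternative fits, and the CCNE2 test without the 3 foreign arrays (0.0575) and with the ACTB covariate (0.0823). SUPT11 stood apart from the mean of the other 3 lines for 6 of the 8 genes, against 15.2% of all genes, and P12-ICHIKAWA for none, against 8.38% (TALL-1 4 of 8 and 28.6%, RPMI-8402 1 of 8 and 18.5%). For SUPT11 the differences were 0.86 for CCNE1, 0.49 for CCNE2, 0.47 for CCND3, 0.26 for CDK4, -0.33 for CDKN1B and 4.02 for CDK6 (adjusted p = 1.87e-05, 0.0412, 0.00376, 0.0312, 0.0252 and 0.0051). Between pairs of lines, TALL-1 minus SUPT11 was called for 5 of the 8 genes (26.7% of all genes), TALL-1 minus P12-ICHIKAWA for 4 (21.2%), SUPT11 minus RPMI-8402 for 4 (17.4%), P12-ICHIKAWA minus RPMI-8402 for 2 (14.4%), TALL-1 minus RPMI-8402 for 1 (23.6%) and SUPT11 minus P12-ICHIKAWA for 0 (1.82%).

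The DMSO levels of all 8 genes differed among the lines, against 96.3% of all genes. By pairs of lines, 7 of the 8 differed between TALL-1 and SUPT11 (78.9% of all genes), TALL-1 and RPMI-8402 (70.8%), SUPT11 and P12-ICHIKAWA (77.4%), SUPT11 and RPMI-8402 (79.7%), and P12-ICHIKAWA and RPMI-8402 (65%), and 6 between TALL-1 and P12-ICHIKAWA (70.3%).

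Other genes of the pathway were read from lists chosen with earlier results of these data known. Of 12 RB family and E2F genes, 8 fell in TALL-1, 6 in RPMI-8402, 4 in P12-ICHIKAWA and 0 in SUPT11, and none rose. Over all tested genes 19.6% were called lower in TALL-1, 21.5% in RPMI-8402, 2.98% in P12-ICHIKAWA and 0.582% in SUPT11. In RPMI-8402 the E2F6 call was lost on leaving out any 1 of 15 arrays and under 4 other settings. The E2F4 call there was lost on leaving out any 1 of 4 arrays and under 7 other settings. E2F1, an activator of S phase genes, averaged 9.67 ± 0.016 with NVS-ZP7-3 and 10.53 ± 0.18 with DMSO in TALL-1 (SD, n = 3 each), a change of -0.87 ± 0.086 (limma adjusted p = 1.77e-07), and fell by 0.41 in P12-ICHIKAWA (0.00527), a call that was lost with HBB as a covariate (0.0594) and with the 6 arrays of the line alone (0.146). The repressor genes E2F7 and E2F8 fell in TALL-1, P12-ICHIKAWA and RPMI-8402, by 0.75, 0.32 and 0.33 for E2F7 and by 0.68, 0.61 and 0.67 for E2F8. With the mean of all probe sets the E2F7 calls in P12-ICHIKAWA and RPMI-8402 were lost (-0.16 and -0.17, limma adjusted p = 0.425 and 0.216). The P12-ICHIKAWA call of E2F7 was also lost with the line alone (0.176). The E2F8 call in P12-ICHIKAWA (adjusted p = 0.0143) was lost without DMSO replicate 1 or treated replicate 1 of that line (0.053 and 0.0884), with HBB as a covariate (0.109) and with the line alone (0.226). The median change of this list was -0.38 in TALL-1, -0.24 in RPMI-8402, -0.10 in P12-ICHIKAWA and 0.077 in SUPT11, against 0 to -0.022 over all tested genes. Of 11 tested S phase and proliferation genes under E2F control 9 fell in TALL-1, 4 in RPMI-8402, 1 in P12-ICHIKAWA and 0 in SUPT11, beside the same shares of all genes, among them MKI67, a proliferation marker, at -0.996 ± 0.13 in TALL-1, -0.37 ± 0.13 in RPMI-8402 and -0.67 ± 0.13 in P12-ICHIKAWA. The MKI67 call in RPMI-8402 (adjusted p = 0.0289) was lost on leaving out DMSO replicate 1 or 2 or treated replicate 1 or 2 of that line (0.0619 to 0.138), and under 5 other settings. In RPMI-8402 the TK1 call was lost on leaving out any 1 of 5 arrays and under 6 other settings (limma adjusted p up to 0.368). The RRM2 call there was lost on leaving out either of 2 arrays and under 4 other settings (up to 0.24). MCM5 kept its call in RPMI-8402 whichever array was left out.

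Around CDK2, the partner of cyclin E, 4 of 7 tested genes fell and 1 rose in TALL-1, 3 fell in RPMI-8402, 1 fell in P12-ICHIKAWA and none was called in SUPT11. The share of all genes called higher was 22.3% in TALL-1 and 15.1% in RPMI-8402, beside the shares called lower given above for the E2F genes. CDC25A, the phosphatase that activates CDK2, fell by 0.52 ± 0.070 in TALL-1, 0.33 ± 0.070 in RPMI-8402 and 0.39 ± 0.070 in P12-ICHIKAWA (SE; limma adjusted p = 8.55e-06, 0.0011 and 0.0013). The P12-ICHIKAWA call was lost with the 6 arrays of the line alone (0.0605). In this list the CCNA2 call in TALL-1 was lost on leaving out any 1 of 4 arrays and under 5 other settings. The MNAT1 call in RPMI-8402 was lost on leaving out any 1 of 4 arrays and under 2 other settings. CDK2 itself fell in TALL-1, at 11.34 ± 0.057 with NVS-ZP7-3 and 11.81 ± 0.068 with DMSO (SD, n = 3 each; limma adjusted p = 1.09e-06). Of 12 genes in the turnover of cyclins and p27, SKP2, which marks the CDKN1B protein for destruction, fell in the same 3 lines, by 0.52 ± 0.048 in TALL-1, 0.36 ± 0.048 in RPMI-8402 and 0.17 ± 0.048 in P12-ICHIKAWA (adjusted p = 7.58e-08, 1.16e-05 and 0.0391). The P12-ICHIKAWA call was lost on leaving out any 1 of 6 arrays, which are SUPT11 treated replicate 1 and every P12-ICHIKAWA array but DMSO replicate 1 (adjusted p = 0.0503 to 0.15), and under 7 other settings. In that list 2 fell and 1 rose in TALL-1, 2 fell and 1 rose in RPMI-8402, 1 fell in P12-ICHIKAWA and none was called in SUPT11, so in TALL-1 and RPMI-8402 the list did not exceed the shares of all genes. Among the other CDK inhibitors CDKN1A and CDKN1C stayed near the floor, at 2.19 and 2.93 on their highest array. Of the 3 that were tested none was called in RPMI-8402, P12-ICHIKAWA or SUPT11. CDKN2D read 4.07, 4.16 and 4.07 with NVS-ZP7-3 and 3.64, 3.49 and 3.69 with DMSO in TALL-1. It reached the level needed for testing on those 3 treated arrays alone, so it could enter the test only where it was high, and its call is not counted as support.

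Of 13 regulators of the G1 genes in T cells 5 fell and 3 rose in TALL-1, 3 fell and 3 rose in RPMI-8402, 2 fell in P12-ICHIKAWA and none was called in SUPT11. Of all genes 19.6% were called lower and 22.3% higher in TALL-1, and 21.5% and 15.1% in RPMI-8402. The 3 that rose in TALL-1 and the 3 that fell in RPMI-8402 are near those shares. In P12-ICHIKAWA 2.98% of all genes were called lower. MYC averaged 10.87 ± 0.16 with NVS-ZP7-3 and 11.87 ± 0.21 with DMSO in TALL-1, and 10.56 ± 0.15 and 11.93 ± 0.075 in RPMI-8402 (SD, n = 3 each), changes of -1.003 and -1.37 (limma adjusted p = 2.85e-07 and 5.93e-09). MYC was not called in P12-ICHIKAWA (-0.073, adjusted p = 0.813) or SUPT11 (-0.11, 1). Any link between MYC and the G1 genes was not tested. FOXO4, of the FOXO family that is known to raise CDKN1B, rose by 1.22 ± 0.10 in TALL-1 and 0.43 ± 0.10 in RPMI-8402 and was not called in P12-ICHIKAWA (0.27 ± 0.10, adjusted p = 0.145). In P12-ICHIKAWA the called regulators were NOTCH3 and the Notch target HES1. NOTCH3 averaged 5.23 ± 0.31 with NVS-ZP7-3 and 8.32 ± 0.25 with DMSO, and HES1 8.82 ± 0.038 and 9.35 ± 0.055. NOTCH3 was also called lower in RPMI-8402 (-2.12, limma adjusted p = 1.19e-09). In TALL-1 NOTCH1 and HES1 were called lower (-0.94 and -0.88, limma adjusted p = 0.00181 and 7.14e-11). The NOTCH1 call was lost with the ACTB covariate (0.0592). In SUPT11 NOTCH3 lay within 0.1 of the floor and NOTCH1 averaged 2.94 with NVS-ZP7-3 and 2.45 with DMSO. No gene of these lists was called there, where 0.582% of all genes were called lower and 1.18% higher. Any link between the Notch genes and the G1 genes was not tested.

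**Figure D4:**
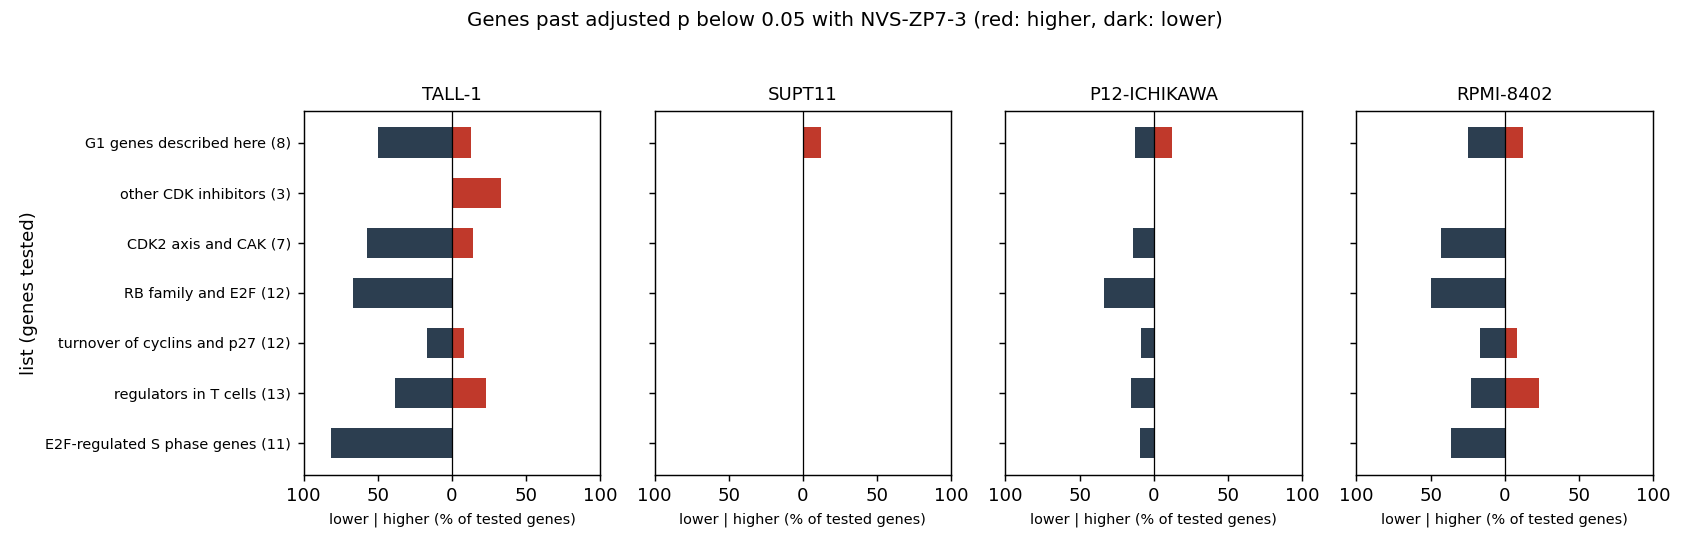
Share of the tested genes of each list (y axis, number tested in brackets) called lower (left, dark) or higher (right, red) with NVS-ZP7-3 (x axis, percent), 1 panel per line. The E2F lists are dark in TALL-1, RPMI-8402 and P12-ICHIKAWA, and SUPT11 is empty but for CDK6. The bar of the other CDK inhibitors in TALL-1 is CDKN2D, tested only through its treated arrays.

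Across the 8 group means the tested gene whose pattern was most like that of CCNE1 was EML5 (Pearson r = 0.997), that of CCND3 was FZD5 (0.996), of CDK6 MFHAS1 (0.996), of CDKN1B SH3GLB1 (0.996), of RB1 LDLRAD4 (0.999) and of CCND2 SP140L (0.993). The second nearest were RIOX1, MYT1, TIMP2, TOGARAM1, ORAI2 and COTL1 in the same order (0.992, 0.992, 0.996, 0.995, 0.998 and 0.991). These correlations over 8 means of 4 lines describe mainly the levels of the lines. CDK4 and CCNE2 spanned less than 2 log2 units and were not matched.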

How the data were processed

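RNA of 4 T-ALL lines was measured on 24 Affymetrix arrays, labelled with the 3' Plus protocol per the labels' protocols. The authors deposited log2 expression values of 54675 probe sets, made with GCRMA, which the submitters' processing notes list beside limma without versions. The lowest value was 2.18 throughout, 52.4 to 53.9% of probe sets lay within 0.1 of it, and none was missing. Arrays have no count of reads, so their number limits the precision.

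Symbols were updated through RefSeq (GRCh38.p14): 41097 probe sets had 1 gene, 1801 several and 11777 none, 41043 matched and 54 kept the old symbol. A gene was tested where 3 or more arrays reached log2 4. A model of 8 group means was fitted with limma 3.58.1 in R 4.3.3 (16 residual degrees of freedom), so all groups shared 1 spread per gene, with contrasts per line, between lines and an F test of the interaction. The fit was tested on simulated data. Groups at the floor have almost no spread, which lowers the shared spread.

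The 10 genes and all lists were chosen with earlier results of these data known, so their counts are descriptions. Named beside the G1 genes were up to 4 called genes per list and line with the largest change, and the 2 genes with the most similar group means. SH2D1A, FGFBP2 and COTL1 were named after their values were seen. Promoter windows came from RefSeq (GRCh38.p14). Alternatives were other filters, probe sets, scalings, priors and thresholds, the replicate number as a block, ACTB and HBB covariates, lines alone, and leaving out arrays.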

Additional observations from a re-analysis of the deposited data

Results flagged for a closer look

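The response to NVS-ZP7-3 differed among the 4 lines for 6 G1 genes by the limma F test of line by treatment, adjusted over all tested genes. CCNE1 (adjusted p = 1.99e-06) fell by 1.37 in RPMI-8402, 1.03 in TALL-1 and 0.52 in P12-ICHIKAWA on the log2 scale and changed by -0.11 in SUPT11. CCND3 (4.11e-04) changed by -0.76 in TALL-1 and by -0.29 to 0.062 in the other lines. CDK4 (0.00309) changed by -0.52 and -0.42 in TALL-1 and RPMI-8402 and by -0.13 and -0.097 in P12-ICHIKAWA and SUPT11. These 3 tests stayed below 0.05 in all 34 alternative fits, with highest adjusted p-values of 8.03e-05, 0.0028 and 0.0433.

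By its brighter probe set CCNE2 (0.0123) changed by -0.77 in TALL-1 and by -0.30 to 0.073 elsewhere. Its test was lost without the 3 arrays with foreign transcripts (0.0575) and with the ACTB covariate (0.0823). The second CCNE2 probe set, 211814_s_at, was called lower in TALL-1, RPMI-8402 and P12-ICHIKAWA (-1.50, -0.76 and -0.60). CDK6 (0.0137) rests on SUPT11, where it was 3.86 higher with NVS-ZP7-3, and was lost in 1 of the 34 fits (0.0502). Treated replicate 2 of SUPT11, which carries transcripts of another line, read 9.53 beside 4.72 and 4.35 on the other treated arrays. The SUPT11 change was 2.19 without the 3 foreign arrays, and it was not called with the 6 arrays of the line alone (limma adjusted p = 0.412). CDKN1B (0.0499) changed by 0.17 in SUPT11 and by 0.44 to 0.57 in the other lines, and its test was lost in 24 of the 34 fits.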

How the results depend on the processing

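Over all alternatives no change of a G1 gene reversed among those called with either setting. In TALL-1 and RPMI-8402 the calls numbered 5 or 6 and 3 or 4 under every alternative, and 8 of 8 genes differed among DMSO levels in each. At adjusted p below 0.01 SUPT11 had 0 G1 genes called and the interaction 3, and with the 6 arrays of a line alone SUPT11 had 0 and P12-ICHIKAWA 1. The number of all genes called was 107 at adjusted p below 0.01 and 33 with the line alone in SUPT11 (188 as reported), and 434, 220 and, with HBB as a covariate, 388 in P12-ICHIKAWA (841 as reported). A stricter threshold makes a count smaller by construction. The cause of the smaller counts with a line alone and with HBB as a covariate was not tested.

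When each array was left out in turn, 5 to 6 G1 genes were called in TALL-1, 1 to 1 in SUPT11, 2 to 3 in P12-ICHIKAWA, 3 to 4 in RPMI-8402, 5 to 6 in the interaction and 8 to 8 among DMSO levels. Leaving out SUPT11 NVS-ZP7-3 replicate 2 called CDK6 in TALL-1. CCND2 in TALL-1 was called without treated replicate 1 (3.20, adjusted p = 0.011) or 3 (2.81, 0.0385), where the array with foreign transcripts weighs more. CCND3 was called in P12-ICHIKAWA without DMSO replicate 2 or 3 or treated replicate 2 (adjusted p = 0.0419, 0.0223 and 0.0338), and in RPMI-8402 without P12-ICHIKAWA DMSO replicate 1 (0.0232), with the ACTB covariate (-0.40, 8.87e-04) or alone (0.0321). CCNE2 in RPMI-8402 was called without treated replicate 2 (-0.42, 0.0337).

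With the replicate number as a block, the counts of G1 genes called were 5 for TALL-1, 3 for RPMI-8402, 2 for P12-ICHIKAWA, 1 for SUPT11, 5 for the interaction and 8 for DMSO levels. The numbers were not taken to pair the samples, since the correlations of same-numbered deviations from the group means ranged from -0.14 to 0.42 and exceeded 0.1 for SUPT11 replicates 2 and 3 and P12-ICHIKAWA replicate 3 only. Of 1690 alternative values for the 47 changes of other named genes, 114 lost their call and 0 reversed. Averaging all probe sets of a gene lowers the changes of CCND3 and CCNE1 by construction, since 1 of their 2 probe sets is at the floor. Centring on the median moved the median change of all genes by 0.05 or less in every line. What lies under the floor, for CCND1, for CCND2 in TALL-1 and for CDK6 in SUPT11 with DMSO, has no order.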
